A study of Mus musculus with 2 samples.

Results

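Plasmacytoid dendritic cells were described among the CD45+ cells of B16 tumours. A barcode was taken as a plasmacytoid dendritic cell (pDC) if 200 or more genes were detected in it, mitochondrial UMIs were no more than 10%, and it held at least 2 UMIs (unique molecular identifiers, each standing for 1 captured transcript) of Siglech, and at least 1 UMI of Ccr9, Cox6a2 and Klk1 summed. It also had to hold no UMI of Cd3d, Cd3e or Cd3g, at most 10 UMIs of C1qa, C1qb and C1qc per 10000, and fewer than 100 UMIs of S100a8 and S100a9 per 10000. This rule selected 183 of 13818 kept barcodes, 77 in the library labelled WT and 106 in the library labelled KO. The cells were thus chosen by the measured counts of 12 genes, and the levels of these genes are given as a description with no test.

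B16, a mouse melanoma line of C57BL/6 origin, had been injected subcutaneously into mice aged 8 weeks, and live CD45+ cells that excluded 7-AAD were sorted from the digested tumours and sequenced by droplet 3′ RNA sequencing. The WT mice were Mettl3 fl/fl Lyz2 +/+ and the KO mice were Mettl3 fl/fl Lyz2 cre/+, so both groups carried the floxed Mettl3 alleles, and the KO group also carried 1 Lyz2 allele that expresses Cre recombinase in macrophages, granulocytes and other myeloid cells. Each genotype was 1 library from pooled mice. A difference between genotypes therefore has no replicate check, and it is given as the values of 2 libraries with exact intervals that cover counting error alone. The libraries held 45963969 (WT) and 54052317 (KO) UMIs, and the kept cells had a median of 4354 and 3740 UMIs.

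Plasmacytoid dendritic cells are a sparse lineage of the bone marrow that senses viral and self nucleic acids in endosomes through TLR7 and TLR9. On activation, they secrete large amounts of type I interferon. The E protein TCF4, with SPIB, BCL11A, IRF8 and RUNX2, sets up and keeps their identity, whereas the antagonist ID2 marks conventional dendritic cells. In tumours, pDCs are known for a weak capacity to present antigen and for tolerogenic functions.

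The promoters of the marker genes in the rule are shown because TCF4 binds E-boxes, here the letters CAGGTG on either strand (CACCTG when read on the other). RefSeq promoter sequences (GRCm38.p6, 250 bases before each transcription start) were found for 3 of the 4 genes, and each of the 3 held this E-box, against 19.4% of the 27025 genes of the table with a promoter. Cox6a2 had no entry. The last 100 bases before the start are given 5′ to 3′ with the E-box in capitals, for Siglech at chr7:55768084-55768183 (plus strand), Klk1 at chr7:44225260-44225359 (plus strand) and Ccr9 at chr9:123767111-123767210 (plus strand).
Siglech: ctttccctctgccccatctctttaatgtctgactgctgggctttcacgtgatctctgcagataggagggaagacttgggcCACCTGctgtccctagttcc
Klk1: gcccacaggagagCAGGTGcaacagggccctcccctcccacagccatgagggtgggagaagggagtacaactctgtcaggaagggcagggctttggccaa
Ccr9: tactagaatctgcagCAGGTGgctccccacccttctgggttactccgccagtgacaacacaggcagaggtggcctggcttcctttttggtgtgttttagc
The E-box began 20 bases before the start in Siglech, 87 bases before it in Klk1 and 85 bases before it in Ccr9. Among the genes later tested against conventional dendritic cells, 17.1% of the 6707 with a promoter held CAGGTG, as did 22.0% of the 937 that were higher in pDCs. A match is a stretch of letters and was not tested as a binding site.

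pDCs made up 1.36% of the kept cells in the library labelled WT (77 of 5661, exact Clopper-Pearson 95% interval 1.07% to 1.70%) and 1.30% in the library labelled KO (106 of 8157, interval 1.07% to 1.57%). The log2 ratio of the shares, KO over WT, was -0.07 with an interval from -0.49 to 0.35, so no difference was detectable at this depth. Their median depth was 3600 UMIs and 1586 genes in the library labelled WT, and 3399.5 UMIs and 1514.5 genes in the library labelled KO. The cells of the class held 312855 and 408421 UMIs in sum, to which all levels below are scaled as UMIs per 1000000 UMIs of the class (CPM).

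Siglech, a sialic acid-binding receptor of pDCs (chr7:55768178-55778925, mm10, plus strand), was counted at a median of 6 UMIs per cell, from 2 to 23. Ccr9, a chemokine receptor for CCL25 (chr9:123678439-123784330), had a median of 3 UMIs and was seen in 92.9% of the cells. Cox6a2 encodes the muscle-type subunit 6A of cytochrome c oxidase (chr7:128205435-128206387, minus strand), and it was seen in 84.2% of the cells with a median of 4 UMIs. Klk1, a kallikrein protease gene (chr7:44225360-44229618), was seen in 58.5% of the cells. Outside pDCs, the highest level in any of the 7 other classes and both libraries was 10.2 CPM for Siglech, 14.8 CPM for Ccr9, 9.13 CPM for Cox6a2 and 3.09 CPM for Klk1, against 1940 and 1682, 943 and 1006, 1521 and 1447, and 508 and 918 CPM in the pDCs of the libraries labelled WT and KO.

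At the edge of the rule, 11 cells held exactly 2 Siglech UMIs, 1 of them in the library labelled WT, and their summed Tcf4 level was 1424 CPM. Just outside it, 7 cells held 1 Siglech UMI with a second marker and had 1170 CPM of Tcf4, and 7 cells held 2 or more Siglech UMIs without a second marker and had 900.0 CPM. The limit on Cd3 left out 17 barcodes, the limit on C1q left out 24 and the limit on S100a8 and S100a9 left out 1. The 17 and 24 barcodes were deeper than pDCs, with medians of 8956 and 9802 UMIs, and every one held a Tcf4 UMI.

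The label was checked against marker genes. The 15 markers listed for pDCs all had UMIs, with a sum of 17002 CPM (WT) and 16848 CPM (KO), but the list holds Siglech, Ccr9, Cox6a2 and Klk1, whose UMIs the rule required in part. Of those the rule did not use, Bst2, Irf8, Ly6d and Tcf4 had the most UMIs. All 6 B cell markers, among them Cd79a, Ms4a1, Pax5, Fcmr and Cd22, were at 0 UMIs. Of the plasma cell markers, 3 of 5 had UMIs (12.8 and 12.2 CPM in sum, with Jchain and Tnfrsf17 at 0), as had 4 of 6 T cell markers (16.0 and 14.7 CPM, Trbc1 and Cd5 at 0) and 2 of 5 NK cell markers (6.39 and 4.90 CPM, Ncr1, Klrb1c and Prf1 at 0). The 5 mature dendritic cell markers all had UMIs and summed to 12.8 and 19.6 CPM. Of the cDC1 markers, 4 of 6 had UMIs in 36.6% of the cells, with sums of 121 and 135 CPM against 1805 and 2039 CPM in cDC1, and Xcr1 and Itgae were at 0. The 5 cDC2 markers all had UMIs, at 1004 and 881 CPM against 2479 and 2474 CPM in cDC2. The 5 monocyte markers all had UMIs, in 93.4% of the cells, and summed to 2273 and 2191 CPM, a list that holds Ly6c2, which the pDCs carried at 1812 and 1841 CPM. The 7 macrophage markers all had UMIs and summed to 438 and 487 CPM, against 7177 and 6464 CPM in the macrophages of the same libraries. Of the granulocyte markers, 5 of 6 had UMIs, at 25.6 and 53.9 CPM (interval of the log2 ratio, KO over WT, -0.15 to 2.45), and the 5 melanoma markers were at 22.4 and 58.8 CPM (0.13 to 2.85). Of the fibroblast markers, 3 of 5 had UMIs, at 9.59 and 0 CPM, with Dcn and Lum at 0. The melanoma sum was thus higher in the library labelled KO, as were the interferon response genes described below, whereas the granulocyte interval included 0. The part of melanoma and granulocyte RNA in the interferon difference was not tested.

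A small number of pDCs carried myeloid RNA. The 5 genes whose level per cell correlated most negatively with Siglech over the 183 cells were Ms4a6c (r = -0.44), Lgals3 (-0.42), S100a6 (-0.42), Spi1 (-0.41) and Ifitm2 (-0.41), and the 5 most positive were Tcf4 (0.35), Irf8 (0.33), Cox6a2 (0.30), Bst2 (0.27) and Runx2 (0.26). These are correlations across cells that share 2 libraries and differ in depth, and they are given as a description. With 5 or more UMIs of Ms4a6c, Lgals3, Spi1 and Ifitm2 as a limit set after seeing the data, 7 of 77 pDCs in the library labelled WT and 17 of 106 in the library labelled KO fell into this subset. The limit counts UMIs of genes picked by their correlation with Siglech, so greater depth, less Siglech and more of these genes in the subset follow from the choice. The median depth was 10657 and 7601 UMIs against 3515.5 and 3143 in the remaining pDCs. Of these 24 cells, 2 in the library labelled WT and 9 in the library labelled KO were among the cells with the highest doublet scores. Whether they are doublets was not tested, and several values below are given both with and without them.

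To ask which genes set pDCs apart from other dendritic cells, UMIs were summed per class and library, and pDCs were compared with the mean of cDC1 (Xcr1 and Clec9a), cDC2 (Cd209a) and mature dendritic cells (Fscn1 and Ccr7) with edgeR's quasi-likelihood test, the library as a block and Benjamini-Hochberg adjustment. The 2 libraries differ in genotype and are not replicates of a condition. The block takes out the general difference between them. The p-values thus measure how far differences between classes varied from library to library, pooled over all classes of the fit, B cells included. This variation cannot be told apart from an effect of genotype on single classes. Of 8438 genes tested, 1213 (14.4%) were higher and 960 (11.4%) were lower in pDCs at an adjusted p under 0.05. DESeq2 called 789 higher and 612 lower, and without TMM (trimmed mean of M-values) scaling the calls were 1679 higher and 575 lower, with the median log2 difference of all genes moving from 0.003 to 0.25. Genes used by any class rule were left out of the calls.

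The transcription factors of the pDC lineage were higher for 9 of 10 listed genes, with a median log2 difference of 2.83 against 0.003 over all genes. Tcf4, the E protein that defines the lineage, stood at 1624 and 1528 CPM in the pDCs of the libraries labelled WT and KO against 21.2 to 180 CPM in the conventional classes (log2 difference 4.21, SE 0.18, edgeR adjusted p = 2.62e-11). Runx2, known for its part in the exit of pDCs from the bone marrow, stood at 572 and 463 CPM against 3.97 to 32.9 CPM (log2 difference 4.94, SE 0.21, adjusted p = 1.88e-11). The pDC and conventional sums did not overlap for either gene.

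Spib, an ETS factor, and Bcl11a, a zinc finger factor upstream of Tcf4, were also higher. Spib was at 281 and 272 CPM in pDCs, undetected in cDC1 and at 8.35 to 55.4 CPM in cDC2 and mature cells (log2 difference 5.72, SE 0.28). Bcl11a was at 668 and 788 CPM against 2.70 to 168 CPM (log2 difference 4.25, SE 0.20). Irf8, which cDC1 also require, reached 3094 and 3234 CPM in pDCs and 2071 and 2173 CPM in cDC1 (log2 difference 2.24 against the mean of the 3 classes, SE 0.14). Mef2c (3.14), Tcf12 (2.52), Ikzf1 (1.55) and Zeb2 (1.20) were higher, and Cbfa2t3 (-0.79) was the member that was lower.

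Factors of conventional dendritic cells were lower for 5 of 8 genes, and for 3 of 8 with DESeq2. Klf4 was called higher (log2 difference 0.62, SE 0.22, adjusted p = 0.0426), a call that was lost with DESeq2, with no filter on low counts, with no library block and without the pDCs that carried myeloid RNA. Id2, the inhibitor of E proteins, was at 128 and 115 CPM in pDCs against 312 to 1437 CPM in the conventional classes (log2 difference -2.97, SE 0.23, adjusted p = 2.96e-08). Batf3, which cDC1 depend on, was lower (-2.80), as were Zbtb46 (-3.06), Nfil3 (-1.15) and Relb (-0.98). Irf4 and Rel did not pass the test, at log2 differences of -0.81 and -0.69.

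**Figure D1:**
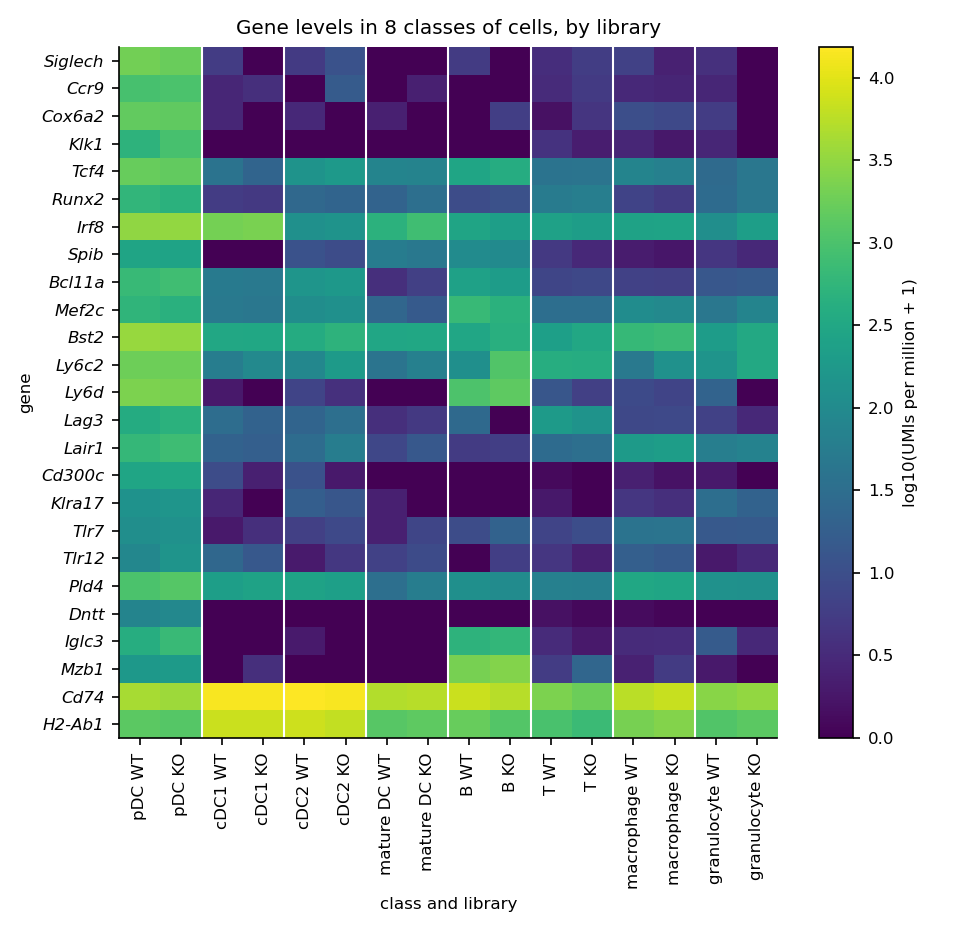
Levels of 25 genes (rows, log10 of CPM plus 1) in 8 classes of cells, each shown for both libraries (columns). Siglech, Ccr9, Cox6a2 and Klk1, which chose the pDCs, stayed at or below 14.8 CPM in the other classes, whereas Tcf4, Irf8 and Ly6d also had UMIs in B cells or cDC1, and Cd74 and H2-Ab1 were highest in cDC1 and cDC2.

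Surface receptors known from pDCs were higher for 10 of 13 tested genes and lower for none (median log2 difference 4.73). Bst2, the tetherin antigen recognised by the antibody PDCA-1, was at 3487 and 3242 CPM against 297 to 513 CPM (log2 difference 3.03, SE 0.14). Ly6c2 was at 1812 and 1841 CPM against 39.2 to 189 CPM (4.39, SE 0.32). The inhibitory receptors Lair1 (4.85), Lag3 (4.73) and Klra17 (5.62) were higher as well. Cd8a (3.94) and Cd4 also passed, the latter with 147 UMIs in pDCs against 3 in all conventional classes together. Flt3 (-0.21), Itgax (0.45) and Il3ra (-0.08) did not pass the test.

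By the fitted log2 difference, Ly6d led all genes outside the class rules. Ly6d, a GPI-anchored antigen of lymphoid progenitors (chr15:74762056-74763620, minus strand), had 1623 UMIs in pDCs and 10 in the conventional classes, a pooled ratio of 1211 (interval 657 to 2529 for counting error). B cells also held it, at 1046 and 1426 CPM. Gm21762 had 303 UMIs against 3, and Mctp2, a membrane protein with C2 domains, had 150 against 3. Atp1b1, the beta subunit of the sodium-potassium ATPase, had 470 against 22 (log2 difference 7.29, SE 0.26, adjusted p = 2.43e-12), and Cd300c, an immunoglobulin-like receptor, had 220 against 21 (7.22, SE 0.42). The remaining genes of the 15 highest were Iglc3, Iglc2, Mzb1, Cd4, Smim5, Cdh5, Paqr5, Slco4a1, Cd8b1 and AC140186.1, with 105 to 404 UMIs against 1 to 28. DESeq2 did not call Gm21762, Cd4, Smim5 or Cdh5.

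Promoter entries were found for 5 of these 15 genes, and 4 of the 5 (Slco4a1, Mctp2, Paqr5 and Cd300c) held CAGGTG. Among listed genes with an entry, 2 of 9 transcription factors (22.2%) and 3 of 10 surface receptors (30%) held it, against 19.4% of all genes with a promoter. The windows of Atp1b1, Runx2, Spib and Bcl11a held neither CAGGTG nor CAGCTG. The window of Mctp2 held both CAGGTG and CAGCTG, an E-box found in 14.7% of all genes with a promoter. The windows of Cd300c (chr11:114960508-114960607, minus strand, 100 bases) and Mctp2 (chr7:72306596-72306755, minus strand, 160 bases) are shown with these E-boxes in capitals.
Cd300c: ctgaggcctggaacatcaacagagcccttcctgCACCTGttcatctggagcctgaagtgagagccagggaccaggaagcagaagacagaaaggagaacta
Mctp2: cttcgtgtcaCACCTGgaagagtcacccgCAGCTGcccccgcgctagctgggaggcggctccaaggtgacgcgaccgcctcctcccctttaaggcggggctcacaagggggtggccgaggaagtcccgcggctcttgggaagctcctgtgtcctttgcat

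Genes of the lymphoid programme were higher than in conventional dendritic cells for 12 of 15 tested. Dntt, the terminal transferase that adds bases at V(D)J junctions, had 24 UMIs in the pDCs labelled WT and 36 in those labelled KO, and none in any conventional dendritic cell or B cell class. Ighm, the immunoglobulin mu heavy chain, was at 984 and 891 CPM against 7.90 to 102 CPM in conventional dendritic cells (log2 difference 4.10, SE 0.10), and far below the 31424 and 32001 CPM of B cells. Blnk (4.85), Cd79b (4.97), Ptprcap (4.07) and Il7r (2.20) were higher too. The recombinase genes Rag1 and Rag2, as well as Pax5, Cd79a and Igll1, had no UMI in pDCs, and Ebf1 and Blk had 1 UMI each.

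The lambda light chain genes differed in their balance. Iglc3 was at 409 and 676 CPM in pDCs and 515 and 587 CPM in B cells, whereas Iglc1 was at 22.4 and 39.2 CPM in pDCs and 57759 and 2164 CPM in B cells. The ratio of the 2 genes in pDCs was thus not that of the B cells of the same library. Iglc2 was at 137 and 267 CPM in pDCs and 7915 and 21488 CPM in B cells. The Iglc genes are related copies, so the split of reads between them is uncertain.

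The machinery of endosomal nucleic acid sensing was higher for 5 of 14 tested genes and lower for 1. Tlr7, the receptor for single-stranded RNA, was at 115 and 132 CPM against 0.927 to 7.42 CPM (log2 difference 4.83, SE 0.34, adjusted p = 9.78e-09). Pld4, an endosomal exonuclease, was at 991 and 1227 CPM (2.74, SE 0.18), and Unc93b1, the chaperone that carries TLRs to endosomes, was at 818 and 771 CPM (1.82, SE 0.20). Slc15a4 (1.12) and Irf7, the factor that drives interferon-alpha genes (0.80, SE 0.26, adjusted p = 0.0284), were higher, and Irf5 was lower (-1.65). Tlr9 had 4 and 6 UMIs and was too sparse for the test. Outside this list, Tlr12, a receptor for profilin, was at 86.3 and 144 CPM (3.78, SE 0.36). Tlr3, a receptor for double-stranded RNA, was at 0 and 2.45 CPM against 1.32 to 222 CPM (-3.53, SE 0.92, adjusted p = 0.00923), a call that DESeq2 did not make.

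Of 11 MHC class II genes tested, which present antigen to CD4+ T cells, 8 were lower and none was higher, with a median log2 difference of -1.60. H2-Eb1 was at 1301 and 967 CPM against 2500 to 7884 CPM (-2.44, SE 0.14), and the invariant chain Cd74 was at 4315 and 3680 CPM against 4964 to 15363 CPM (-1.60, SE 0.10). H2-Aa (-1.76), H2-Ab1 (-1.90) and the class II transactivator Ciita (-1.51) were lower, whereas the peptide exchange chain H2-DMa was at -0.17 and did not pass. Of 10 MHC class I genes, H2-K1 was higher (0.66), and Psmb8 (-0.99), Psmb9 (-0.83), Tap1 (-0.64) and Tap2 (-0.58), which make and carry peptides, were lower. DESeq2 called 1 class I gene higher and 2 lower. Without TMM scaling, 4 were higher and 2 lower, so the balance of this list depends on the scaling.

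Costimulatory and checkpoint genes were lower for 6 of 11 tested genes, including Cd86 (-3.05), Pdcd1lg2 (-2.70), Cd40 (-2.04), Cd274, which encodes PD-L1 (-1.47), and Icosl (-1.12). Among cytokines, Ccl4, an inflammatory chemokine, was higher (1.39, a call lost with no library block) and 6 of 13 were lower, among them Ccl5 (-3.50), Cxcl16 (-3.56), Cxcl9 (-1.88) and Il1b (-1.33). Ccl17 had 0 UMIs in pDCs against 695 in the conventional classes, and Ccl22 had 1 against 3668 (called by edgeR but not by DESeq2). The remaining genes of the 10 lowest were Cst3, the cystatin C gene (826 UMIs against 93943, -3.89, SE 0.16), Bcl2a1d, Nr4a3, Ramp3, Ifitm1, Stmn1 and Txndc16. Ramp3 was at 3.20 and 0 CPM in pDCs, 0.927 and 1.32 CPM in cDC1 and 407 and 509 CPM in mature cells. Txndc16 was at 16.0 and 12.2 CPM in pDCs, 959 and 1101 CPM in cDC1 and 6.58 CPM in the mature cells labelled KO. These 2 genes were thus lower than the mean of the conventional classes but not than each class. Of the conventional classes, mature cells had the highest levels of Ccl5 (5090 and 7302 CPM), Ccl17 (285 and 334 CPM) and Ccl22 (2220 and 2517 CPM).

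Of 10 chemokine and related receptors tested, 4 were higher, among them Cxcr3 (4.02), Cmklr1 (1.75) and the sphingosine receptor S1pr4 (4.93). DESeq2 called 2 of the 10 higher, and without the pDCs that carried myeloid RNA, 2 of 9 were higher and 3 were lower. Both chains of the type I interferon receptor were higher (Ifnar1 1.53, SE 0.19; Ifnar2 1.65, SE 0.19), and Ifngr1, a chain of the interferon-gamma receptor, was lower (-1.52). Cell cycle genes were lower for 15 of 22, with 3 UMIs of Mki67 and 4 of Top2a in all pDCs.

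Secretory pathway genes were higher for 8 of 35, against 14.4% of all genes, and lower for none. With DESeq2, 3 of 35 were higher, against 789 of 8438 genes in all, a lower share than over all genes. The 8 genes included Xbp1, a factor of the unfolded protein response (1.57, SE 0.20), Tram1 (1.31), Sec11c (0.96), Hsp90b1 (0.86) and Sec61a1 (0.78). Cytochrome c oxidase subunits, apart from Cox6a2 of the rule, were lower for 7 of 13, such as Cox7b (-0.93) and Cox5b (-0.89), and for 4 of 13 without TMM scaling. Of 17 genes of the m6A machinery tested, Rbm15b (1.32) and Ythdc1 (0.68) were higher and Ythdf2 (-0.80) was lower, no larger shares than the 14.4% and 11.4% over all genes. DESeq2 called none of the 17 in either direction, and without TMM scaling 4 were higher and none was lower. The log2 difference of Mettl3 was 1.01 (SE 0.54, adjusted p = 0.189). Early response genes linked to tissue dissociation moved with this contrast, 7 of 20 higher and 2 lower, including Fosb (1.85), Klf2 (1.59) and Jun (1.42), and their part in the other differences was not tested.

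**Figure D2:**
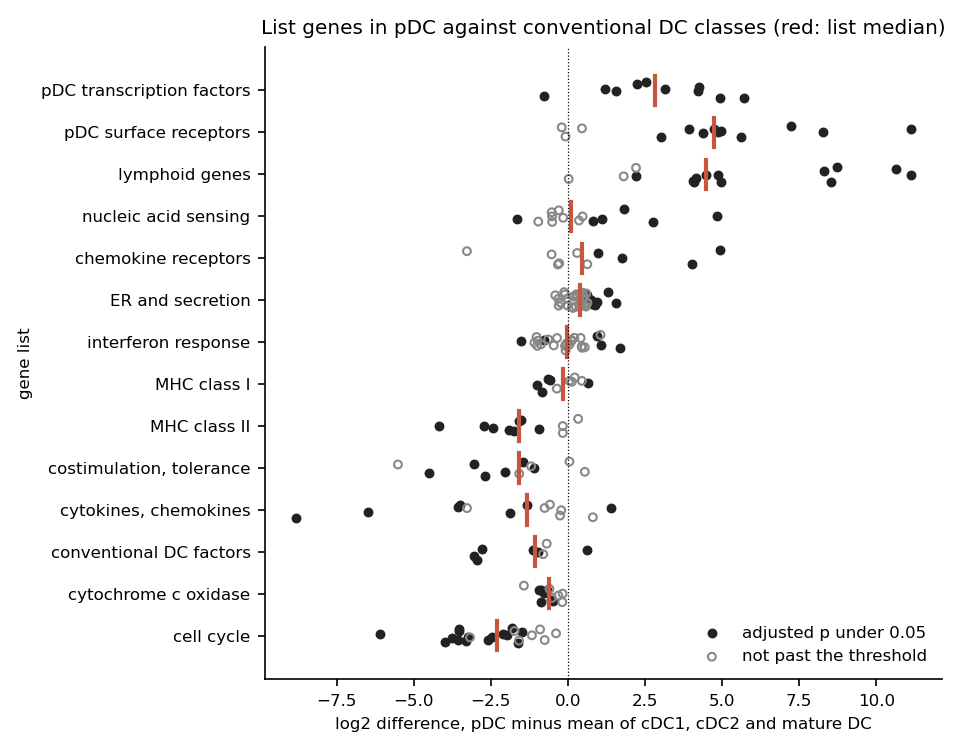
Log2 difference of pDCs from the mean of 3 conventional dendritic cell classes (x axis) for the genes of 14 lists (y axis), filled points for an adjusted p under 0.05, open points otherwise, red bars for list medians. Transcription factors, surface receptors and lymphoid genes lay mostly to the right (medians 2.83, 4.73 and 4.47), and MHC class II, costimulation and cell cycle genes to the left (medians -1.60, -1.58 and -2.30).

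In the same fit, pDCs were compared with B cells, which share the lymphoid genes. Of 8438 genes, 593 (7.03%) were higher and 484 (5.74%) were lower in pDCs. The transcription factors were higher for 8 of 10, although by less for Tcf4 (log2 difference 1.80, SE 0.26) and Spib (1.04, SE 0.27) than for Runx2 (5.37, SE 0.44) and Irf8 (3.24, SE 0.22). Clec10a, a lectin receptor, had 299 UMIs in pDCs and 0 in B cells (at least 59.8-fold higher, with 3 counts as the floor over the class), and Ppfia4, a liprin, had 245 and 0 (at least 49.0-fold higher). Gm21762, Cd300c and Smim5, also at 0 in B cells, complete the 5 highest.

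Among lymphoid genes, 2 were higher in pDCs than in B cells (Dntt and Il7r) and 9 were lower. The lowest genes were Jchain, the joining chain of secreted antibodies (0 UMIs in pDCs, 3343 in B cells), Ighg2c (1 and 8026), Ighg2b (1 and 1014), Bank1 (0 and 110) and Cd22 (0 and 108). The Jchain and Ighg counts show that the B cell class included antibody-secreting cells. Secretory pathway genes were lower than in B cells for 12 of 35 and higher for none. DESeq2 called 352 genes higher and 342 lower, leaving out Gm21762, Smim5 and Bank1, and without TMM scaling the calls were 1095 higher and 279 lower, with the median of all genes moving from 0.06 to 0.46.

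The libraries labelled WT and KO were then compared within pDCs, starting with the targeted gene. Mettl3, the catalytic subunit of the m6A methyltransferase (chr14:52294841-52305128, minus strand), had 6 UMIs in the library labelled WT and 8 in the library labelled KO. This gave 19.2 CPM (exact Poisson 95% interval 7.04 to 41.7) and 19.6 CPM (8.46 to 38.6). In the macrophages, in which Lyz2 is active, Mettl3 was at 10.3 and 10.4 CPM. Its log2 ratio in pDCs, 0.03, changed direction with the processing, to -0.59 with the mean of CPM per cell, -0.53 without the pDCs that carried myeloid RNA, -0.44 with cells thinned to 1000 UMIs, -0.26 with at least 3 Siglech UMIs and -0.17 without the highest doublet scores, so these few UMIs give no direction. 3′ tags do not show whether the floxed part of the gene was removed. Lyz2, the gene whose promoter drives Cre, had UMIs in 46.8% of pDCs in the library labelled WT and 20.8% in the library labelled KO. In T cells, which should lack it, the shares were 46.2% and 30.5% at median depths of 2865 and 2659.5 UMIs, so the shares in pDCs were close to or below that background. Across cell classes, Lyz2 was lower in the library labelled KO, whose mice carried Cre in 1 Lyz2 allele, at 6092 CPM (WT) and 2782 CPM (KO) in macrophages, 3014 and 1525 CPM in granulocytes and 1514 and 981 CPM in cDC2. A single cell held 202 of the 292 Lyz2 UMIs of the pDCs labelled WT.

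Among the 3412 genes that reached 50 CPM in 1 library or both, 135 (3.96%) were at least 2-fold higher in the library labelled KO and 67 (1.96%) at least 2-fold lower, on the log2(CPM + 1) scale. This balance depended on depth and filter, with 531 higher and 545 lower when each cell was thinned to 1000 UMIs, and 2010 and 1783 with no filter. The median log2 ratio was 0.04, and 90% of the genes lay between -0.73 and 0.90. The counting interval left out 0 for 351 genes. With 1 library per genotype, these counts describe 2 libraries and not the genotypes.

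Of the 10 transcription factors and 13 surface receptors at 50 CPM or more, none differed by 2-fold, with median log2 ratios of -0.10 and 0.12. Since 3.96% and 1.96% of all genes did, a count of 0 in lists of this size is near the background. The MHC class II genes summed to 10206 CPM (WT) and 8748 CPM (KO), with an interval of the log2 ratio from -0.29 to -0.15, and 7 of 9 were below 0. Their median of -0.23 turned to 0.25 without the pDCs that carried myeloid RNA. The nucleic acid sensing genes summed to 2711 and 3073 CPM, with an interval from 0.05 to 0.31. Klk1, a gene of the rule, was at 508 and 918 CPM, and at 647 and 960 CPM without the pDCs that carried myeloid RNA.

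Interferon response genes were higher in sum in the pDCs labelled KO. Over all 29 list genes in the matrix, with no filter, the level was 2512 CPM (WT) and 4711 CPM (KO) (log2 ratio 0.91, interval 0.79 to 1.03). Without the pDCs that carried myeloid RNA, the sums were 2229 and 3564 CPM (log2 ratio 0.68, interval 0.53 to 0.83). Of the list, 16 genes reached 50 CPM in 1 library or both, and Ifit2, Ifi44, Rsad2, Usp18, Ifi204, Mx1 and Ifi35 did so through the library labelled KO alone, so that their higher level there follows from the filter and no count over the 16 is given as support. Of the 9 genes at 50 CPM or more in both libraries, the counting interval of the log2 ratio lay above 0 for Isg15, Stat2, Ifi27l2a, Parp14 and Sp100, and reached 0 for the others, among them Oasl2, Irf9 and Trim30a.

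Isg15, a ubiquitin-like modifier (chr4:156199424-156200818, minus strand), had 20 UMIs in 11 pDCs labelled WT and 152 UMIs in 28 pDCs labelled KO, or 63.9 and 372 CPM. Without the cells that carried myeloid RNA it was at 49.5 and 150 CPM, a smaller difference. Ifit2, which encodes an RNA-binding antiviral protein, had 2 UMIs in 1 cell and 34 UMIs in 19 cells (log2 ratio 3.51, interval 1.74 to 6.81), and without those cells 0 and 19 UMIs. Mx1, an antiviral GTPase, was at 38.4 and 157 CPM (12 and 64 UMIs, log2 ratio 2.0, interval 1.13 to 3.06), and at 37.1 and 147 CPM without those cells.

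Rsad2, the antiviral enzyme viperin, was at 19.2 and 120 CPM, and at 8.24 and 45.4 CPM without them. Ifi204, a DNA-binding protein, was at 35.2 and 140 CPM (1.96, interval 1.04 to 3.07), and Usp18, which removes ISG15 from proteins, was at 25.6 and 78.4 CPM. Ifi27l2a was the most abundant gene of the list, at 1016 and 1734 CPM.

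**Figure D3:**
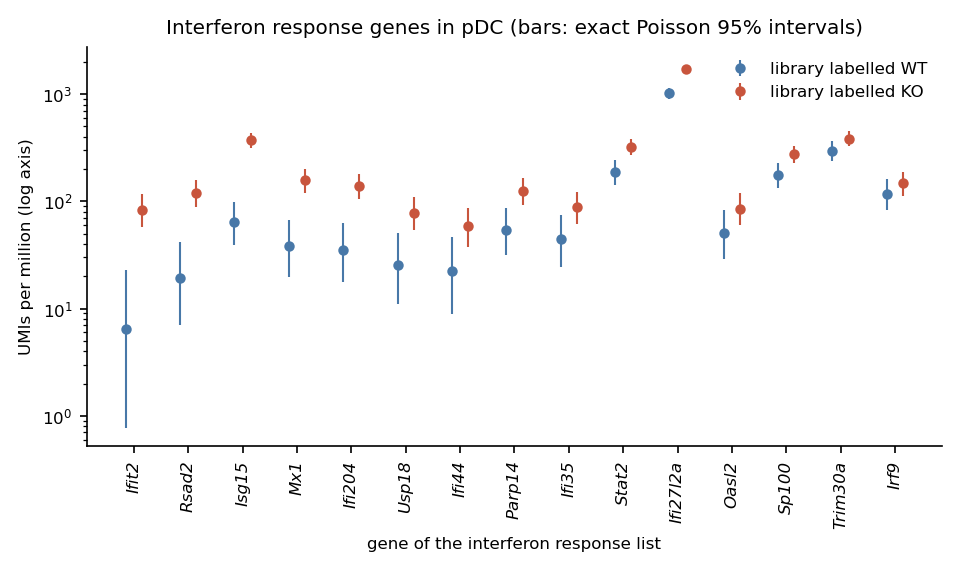
Levels (CPM, log axis) of 15 interferon response genes at 50 CPM or more in pDCs of either library, with exact Poisson 95% intervals as bars. Ifit2, Ifi44, Rsad2, Usp18, Ifi204, Mx1 and Ifi35 are shown because they reached 50 CPM in the library labelled KO alone, so their higher point there follows from the choice. Levels ran from the rare Ifit2 (6.39 and 83.2 CPM) to the abundant Ifi27l2a (1016 and 1734 CPM).

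Isg15, Ifit1 and Ifit3 carry the interferon-stimulated response element (ISRE) close to their start, and their promoters are shown for that reason. The element was searched on both strands of 250 bases as GAAA, any 2 bases and GAAA again, and 9 of 21 list genes with a promoter entry held it (42.9%), against 3.46% of all genes with one. Mx1 and Ifi204 had no entry. The last 160 bases before the start are given with the element in capitals for Isg15 (chr4:156200819-156200978, minus strand), Ifit1 (chr19:34640729-34640888, plus strand) and Ifit3 (chr19:34583369-34583528, plus strand).
Isg15: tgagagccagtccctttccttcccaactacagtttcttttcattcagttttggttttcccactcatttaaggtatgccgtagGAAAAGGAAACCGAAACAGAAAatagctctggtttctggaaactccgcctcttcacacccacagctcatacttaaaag
Ifit1: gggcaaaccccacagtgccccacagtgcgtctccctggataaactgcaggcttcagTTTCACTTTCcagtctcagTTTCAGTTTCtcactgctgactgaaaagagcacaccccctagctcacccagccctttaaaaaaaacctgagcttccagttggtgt
Ifit3: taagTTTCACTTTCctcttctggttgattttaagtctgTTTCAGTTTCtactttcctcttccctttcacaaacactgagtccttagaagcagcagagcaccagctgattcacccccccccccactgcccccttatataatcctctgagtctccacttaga
The 3 overlapping matches of Isg15 form 1 capital run, and Ifit1 and Ifit3 each held 2 separate matches. Ifit1 had 2 UMIs in the pDCs labelled WT and 14 in those labelled KO, and 1 and 4 without the cells that carried myeloid RNA. Ifit3 had 0 and 15 UMIs, 7 of them in 1 cell, and 0 and 2 without those cells. The window of Ifit2 held no match.

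The signal was spread over many pDCs but was uneven. Per cell, the list genes took 0 to 118 UMIs per 10000 in the library labelled WT, with a median of 16.9, and 2.55 to 245 in the library labelled KO, with a median of 27.2, so the ranges overlapped. At 100 or more per 10000 were 1 of 77 cells labelled WT (1.30%, interval 0.03% to 7.02%) and 12 of 106 labelled KO (11.3%, interval 5.99% to 18.9%). Of these 12 cells, 5 carried myeloid RNA. The 5 highest cells held 36.3% of the UMIs of the list in the library labelled WT and 30.1% in the library labelled KO.

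**Figure D4:**
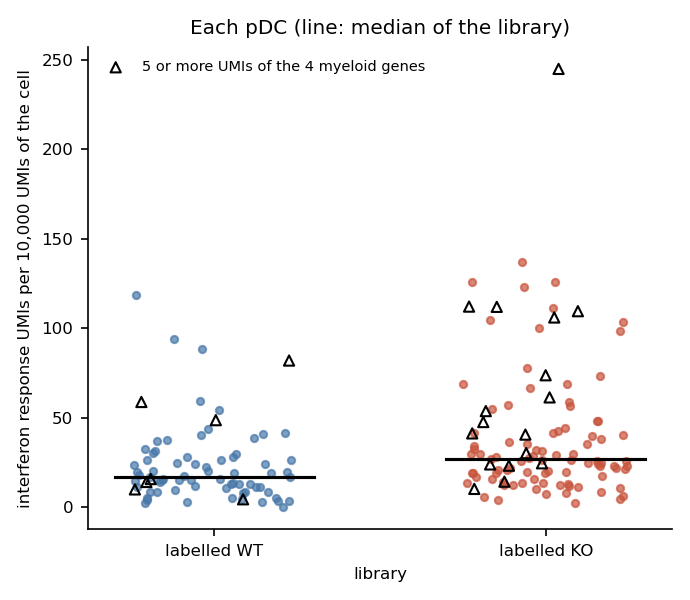
Interferon response UMIs per 10000 UMIs of each pDC (y axis) by library (77 cells labelled WT, 106 labelled KO), with the median as a line and triangles for cells with 5 or more UMIs of Ms4a6c, Lgals3, Spi1 and Ifitm2. The medians were 16.9 and 27.2, and 12 cells labelled KO but 1 labelled WT reached 100.

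To set depth aside, every pDC was thinned to 1000 UMIs, which left out none. Isg15 was then seen in 6.49% of pDCs labelled WT and 14.2% of those labelled KO, and in 5.83% and 13% of T cells, so its shares in pDCs were close to those of T cells. Mx1 was seen in 2.60% and 12.3% of pDCs. The same 16 genes had median log2 ratios of 0.61 in conventional dendritic cells, 0.52 in macrophages and 0.55 in T cells. They were chosen by their level in pDCs, so their median of 1.07 there follows in part from the choice. The pDCs also held fewer UMIs (312855 and 408421, against 13038494 and 13505283 in macrophages), and the difference in size between the classes was not tested.

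**Figure D5:**
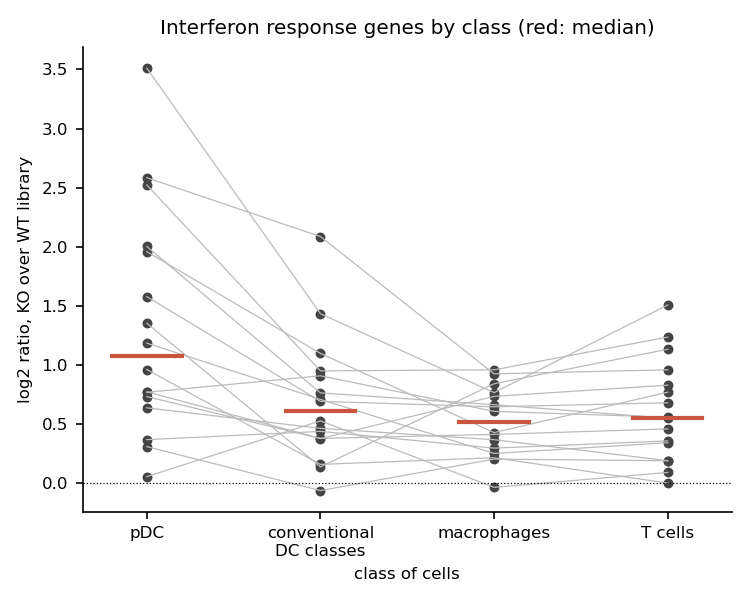
Log2 ratio of the library labelled KO over the library labelled WT (y axis) for the 16 interferon response genes in pDCs, conventional dendritic cells, macrophages and T cells (x axis), with grey lines joining each gene and red bars at the medians. The medians were 1.07, 0.61, 0.52 and 0.55, with genes chosen by their level in pDCs, 7 of them through the library labelled KO alone, and fewer UMIs in pDCs than in macrophages.

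Interferon genes themselves were almost silent. Of 21 genes for type I, gamma and lambda interferons, 19 had no UMI in any pDC, which allows up to 9.59 and 7.35 CPM in the libraries labelled WT and KO at 3 counts. Ifnab had 1 UMI in each library, and Ifnb1 had 1 in the library labelled KO. The receptor chains were at 198 and 223 CPM for Ifnar1 and 310 and 228 CPM for Ifnar2. Irf7 was at 179 and 291 CPM (log2 ratio 0.70, interval 0.23 to 1.19).

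Ccl4 was also higher in the library labelled KO, with 39 UMIs in 20 cells and 187 UMIs in 37 cells (125 and 458 CPM, log2 ratio 1.87, interval 1.37 to 2.41), and at 128 and 405 CPM without the cells that carried myeloid RNA. With each cell thinned to 1000 UMIs, its log2 ratio was 0.93. Ccl3, a related chemokine, had 3 UMIs in 2 cells and 17 UMIs in 12 cells, with at most 3 in a cell, and was at 4.12 and 41.9 CPM without the cells that carried myeloid RNA. Cxcl10, Cxcl9 and Il1b rested on few cells. Cxcl10 had 9 and 93 UMIs, the latter in 7 cells, and was at 0 and 6.98 CPM without the cells that carried myeloid RNA. For Cxcl9, 44 of 50 UMIs labelled KO came from 1 cell, and without the cells that carried myeloid RNA it had 3 and 4 UMIs. For Il1b, 34 of 73 UMIs labelled KO came from 1 cell, and without those cells it was at 4.12 and 17.5 CPM.

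By the rule for named genes, which leaves out genes with over 20% of UMIs in 1 cell, the 8 highest log2 ratios were those of Ifit2, Phf11b (2.35), Mx1, Ifi204, Pgam2 (1.91), Cndp2 (1.89), Yif1b (1.87) and Ccl4. Pgam2, the muscle form of phosphoglycerate mutase, had 13 UMIs in 9 cells and 65 UMIs in 29 cells. The 8 lowest were Map3k7, which encodes the kinase TAK1 (20 and 6 UMIs, -2.05, interval -3.73 to -0.75), Ssbp3 (-1.82), Srd5a3 (-1.73), Zfr (-1.70), Mafk (-1.69), Crtc2 (-1.61), Tlcd2 (-1.56) and Agps (-1.56). These 8 rested on 16 to 28 UMIs in the library labelled WT, and all 8 reached 50 CPM in that library alone. Ifit2, Phf11b, Mx1, Ifi204, Pgam2, Cndp2 and Yif1b reached it in the library labelled KO alone, and Ccl4 in both. Direction and interval thus follow in part from the choice, and the ratios are a description.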

How the data were processed

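Live CD45+ cells of B16 tumours were profiled in 1 library per genotype with the Chromium 3′ v3 chemistry. The authors made the deposited UMI counts, a matrix of 14341 barcodes and 31053 genes, with Cell Ranger 4.0.0 on mm10, and libraries were told apart by the deposited barcode list. The deposited counts were used with no rescaling. Barcodes with fewer than 200 genes or over 10% mitochondrial UMIs were left out. A barcode meeting more than 1 class rule (9) was left out of all classes. The members, gene lists and tests were chosen with earlier results of these data known.

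The UMI counts of each class were added up by library and tested with edgeR 4.0.16 (quasi-likelihood, TMM, library block, 4 residual degrees of freedom) over 5 classes, with DESeq2 1.42.0 as an alternative (R 4.3.3). On simulated counts (7767 genes), the contrast with conventional dendritic cells recovered 81.4% of 4-fold and 24.7% of 2-fold changes, and that with B cells 61.9% and 8.25%. Genotype ratios used CPM plus 1 without mitochondrial, ribosomal protein and haemoglobin genes, with exact Poisson or Clopper-Pearson 95% intervals. Doublets were scored with Scrublet (scanpy 1.11.5), whose automatic threshold called 1 barcode per library, so no cell was removed and an alternative removed the highest 256 and 532 scores (0.8% per 1000 cells), among them 2 and 11 pDCs. The libraries shared 13 barcode sequences, none of them in a pDC. Gene positions came from the GENCODE annotation of GRCm38, and promoters from RefSeq, with no promoter printed for unmatched genes. Named were the 15 highest and 10 lowest genes against conventional dendritic cells, the 5 highest and 5 lowest against B cells, and the 8 highest and 8 lowest genotype ratios, each by the criteria of test, direction within both libraries, level and single-cell share, besides list members. Of the other columns, 0 per-sample columns were left unused. A few genes of the lists are not reported here by name.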

Additional observations from a re-analysis of the deposited data

Results flagged for a closer look

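Genes were looked at if at least 2-fold apart between the libraries in pDCs, with an interval that left out 0. In addition, no single cell could hold over 20% of their UMIs in the higher library. Of 118 such genes, 6 went the opposite way in conventional dendritic cells, 7 in macrophages and 4 in T cells, with intervals there that also left out 0. Of the genes named, Mafk had a log2 ratio (KO over WT) of -1.69 in pDCs, with 18 UMIs in 16 cells and 7 UMIs in 7 cells, and of 0.66 in conventional dendritic cells (13.3 and 21.6 CPM). Yif1b had a log2 ratio of 1.87 in pDCs, with 5 and 25 UMIs, and of -0.17 in macrophages (74.0 and 65.7 CPM). In pDCs, Mafk reached 50 CPM in the library labelled WT alone and Yif1b in the library labelled KO alone. Both were picked by their ratio in pDCs, so the contrast with other classes follows in part from the choice. These differences between classes were not tested.

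Outside the comparisons, 17 barcodes with Siglech and a second marker were left out by the limit on Cd3 and 24 by the limit on C1q. The former held 533 CPM of Tcf4 and 668 CPM of Ly6d, and the latter held 481 and 656 CPM. Among the 17, 10 were in the library labelled WT, and among the 24, 17 were.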

How the results depend on the processing

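No paired analysis was possible because each genotype is 1 library and the labels give no shared replicate numbers, and no library could be left out of a genotype ratio. Without the library block, the contrast with conventional dendritic cells called 1184 genes higher and 894 lower, and that with B cells 583 and 451. DESeq2 called 1401 genes in all against 2173, and 694 against 1077 for B cells. Leaving out a library, with no test, kept the direction of 2171 to 2172 and of 1065 to 1074 of these. The calls came from the same 2 libraries, so this agreement follows from the choice of genes and gives no support. The share ratio kept an interval that reached 0 under every alternative tried (log2 -0.32 to -0.04).

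Genes at least 2-fold apart between the libraries numbered 202, and 125 with a pseudocount of 10 CPM, 781 at 20 CPM or more, 3793 with no filter (2010 higher, 1783 lower) and 1076 with cells thinned to 1000 UMIs (531 higher, 545 lower), against 135 higher and 67 lower. List genes among them numbered 16, and 29 at 20 CPM or more, 62 with no filter, 28 when thinned and 9 without the pDCs that carried myeloid RNA, an alternative added after seeing the data, while all genes then numbered 284 (162 higher, 122 lower). When thinned, the log2 ratio of Agps turned from -1.56 to 0.12. Nearer to 0 were then Phf11b (2.35 to 1.43), Ccl4 (1.87 to 0.93), Yif1b (1.87 to 1.07) and Tlcd2 (-1.56 to -0.45), and farther from it Ifit2 (3.51 to 6.58), Ifi204 (1.96 to 6.71), Pgam2 (1.91 to 3.35), Map3k7 (-2.05 to -3.14), Srd5a3 (-1.73 to -3.14), Ssbp3 (-1.82 to -2.66) and Zfr (-1.70 to -2.57). Without the pDCs that carried myeloid RNA, Cndp2 moved to 1.21, Ifit2 to 6.07, Map3k7 to -3.31 and Agps to -0.99. Ifit2 ran from 2.51 (pseudocount 10 CPM) to 6.13 (highest doublet scores removed) under the other alternatives, and Map3k7 was at -2.67 with the mean of CPM per cell. The values of Ifit2 at 6.07, 6.13 and 6.58 and of Ifi204 at 6.71 stood over 0 UMIs in the library labelled WT. The pseudocount sets their size, so they do not show a larger difference. The interferon response list against conventional dendritic cells had 3 genes higher and 2 lower of 27. It had 7 higher and 1 lower without TMM scaling (median 0.21), and 3 and 11 without the pDCs that carried myeloid RNA (median -0.83). The cause was not tested.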

Other observations

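The following genes, known from muscle, were chosen after their values were seen, and their values are a description. Pgam2 was at 41.6 CPM (WT) and 159 CPM (KO) in pDCs and at most 1.35 CPM in any other class, beside Pgam1 at 125 and 154 CPM. Atp2a1, the calcium pump of the sarcoplasmic reticulum of fast muscle, was at 176 and 93.0 CPM in pDCs and at most 4.64 CPM elsewhere, and its counterpart Atp2a2 was at 73.5 and 93.0 CPM. Sh3bgr, a gene known from heart and skeletal muscle, was at 109 and 83.2 CPM in pDCs. Ckm and Cox8b had 0 UMIs in pDCs, Cox7a1 had 2 in each library, and Eno3 had 1 and 4.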
